A study of Caenorhabditis elegans with 2 samples.

Results

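The genome of Caenorhabditis elegans holds 261 genes annotated as microRNA (miRNA) genes, among 46890 annotated genes of all kinds on 6 chromosomes, and each was searched for nearby binding of the homeobox protein CEH-79. The members were all genes of the miRNA class of the Ensembl annotation of assembly WBcel235, with the 15363 piRNA genes left out. A gene was said to have a peak where the summit of a ChIP-seq peak lay inside it or within 500 bp of either end, and its strongest such peak was taken. Of the 261 genes, 97 were intronic, 152 intergenic and 12 exonic. Intronic genes lie wholly inside a protein-coding gene and touch none of its exons, intergenic genes overlap no protein-coding gene, and exonic genes are all others. Another miRNA gene on the same strand within 10000 bp was present for 81 genes, which formed 29 clusters, and the other 180 genes were single.

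The binding data came from 1 group of worms of strain OP553, genotype unc-119(tm4063) III; wgIs553, in which an integrated transgene (wgIs553) produces CEH-79 with a GFP-FLAG tag at its C terminus. Whole young adults of pooled sexes were taken 66 hours after synchronization as starved first-stage larvae, and 2 biological replicates were precipitated with an antibody against GFP. All worms of the group shared this genotype, so no condition was contrasted. Binding was that of a tagged protein from a transgene in all tissues together, and the cells in which it bound cannot be told apart. The lists of candidate peaks, which hold background as well as peaks, contained 30000 candidates for the pooled replicates, 30000 for replicate 1 and 29624 for replicate 2. The optimal list, thresholded by the authors on the irreproducible discovery rate, contained 566 peaks. The authors scored every peak with a signal, which was compared within a list, with ranks given between lists (rank 1 is the strongest). The pooled signal had a median of 32.6 over all candidates, and the weakest optimal peak had 86.5. No read counts were used, so the depth behind each peak is unknown.

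MicroRNAs are short RNAs cut from a hairpin in a longer transcript, and they guide Argonaute proteins to messenger RNAs that are then repressed. Targets are recognized mainly through the seed, a run of bases near the 5′ end of the mature miRNA, so miRNAs with the same seed form a family and can act on the same targets. Genes for miRNAs may lie alone with a promoter of their own, in a cluster transcribed as a unit, or in an intron of a protein-coding gene, from whose transcript some are released. CEH-79 is a homeobox transcription factor, a class of proteins that bind DNA through a homeodomain.

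Optimal peaks lay at 5 miRNA genes, mir-51, mir-2214, mir-80, mir-4936 and mir-45. RefSeq annotation of the same assembly matched 260 of the 261 genes by WormBase gene ID and gave 458 mature products. The annotated mature products that carry the family seeds of these genes are shown first, with the seed (bases 2 to 8) in capitals, because their seeds place 3 of the 5 genes in families that have other members with candidate peaks. For mir-2214 and mir-4936 the first annotated product is shown.
mir-51 5p: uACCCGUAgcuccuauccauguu
mir-2214 5p: aUUCGGUCcggagucaauggg
mir-80 3p: uGAGAUCAuuaguugaaagccga
mir-4936 3p: uGCUUUGUggcuuugcuggua
mir-45 3p: uGACUAGAgacacauucagcu
mir-44 3p: uGACUAGAgacacauucagcu
mir-53 5p: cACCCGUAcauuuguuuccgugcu
mir-54 3p: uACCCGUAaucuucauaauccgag
mir-82 3p: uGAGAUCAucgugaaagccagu
mir-36 3p: uCACCGGGugaaaauucgcaug
The seed ACCCGUA of mir-51 is shared by 6 genes, mir-51 to mir-56. The seed GAGAUCA of mir-80 is shared by 6 genes, which include mir-81 and mir-82. The seed GACUAGA of mir-45 is shared by 4 genes, and the mature products of mir-45 and mir-44 shown are identical. The seeds shown for mir-2214 and mir-4936 occur in 1 gene each. The seed CACCGGG of mir-36 is common to the 8 genes mir-35 to mir-42.

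The DNA at the summits of the 5 optimal peaks is given next, since it is what the precipitated fragments were centred on. Each window holds the 50 bp on each side of the summit, 5′ to 3′ on the strand of the miRNA gene, with bases inside the annotated miRNA gene in capitals, from the RefSeq sequence of WBcel235.
mir-51, chrIV:11026164-11026264, minus strand: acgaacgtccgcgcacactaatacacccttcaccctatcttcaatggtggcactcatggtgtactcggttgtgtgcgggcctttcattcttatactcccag
mir-2214, chrIII:7278652-7278752, plus strand: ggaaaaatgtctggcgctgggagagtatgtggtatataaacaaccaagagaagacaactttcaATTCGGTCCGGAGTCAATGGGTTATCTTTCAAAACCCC
mir-80, chrIII:8865508-8865608, minus strand: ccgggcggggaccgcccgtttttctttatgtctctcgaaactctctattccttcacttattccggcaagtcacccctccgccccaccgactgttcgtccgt
mir-4936, chrIII:3249188-3249288, plus strand: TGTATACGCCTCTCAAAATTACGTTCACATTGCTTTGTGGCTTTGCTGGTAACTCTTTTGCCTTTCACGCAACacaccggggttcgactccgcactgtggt
mir-45, chrII:11880693-11880793, minus strand: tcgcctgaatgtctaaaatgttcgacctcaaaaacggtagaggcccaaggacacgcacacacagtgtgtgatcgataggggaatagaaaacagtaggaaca
The summit window of mir-4936 held 73 bases of the gene and that of mir-2214 held 38, while those of mir-51, mir-80 and mir-45 held 0. None of the 5 windows contained TAATTA, a core that many homeodomains bind, on either strand. That word was in 2 of the 101 distinct strongest pooled peaks of miRNA genes (1.98%), in 2.95% of all 30000 pooled candidates and in 1.41% of all optimal peaks. The word GTTCGA was present in 2 of the 5 windows, those of mir-4936 and mir-45. It was in 8 of the 101 strongest peaks of miRNA genes (7.92%), in 4.70% of all pooled candidates and in 13.6% of all optimal peaks. GTTCGA belongs to box B, an internal promoter element of tRNA genes. No gene annotated as tRNA, snoRNA or snRNA lay within 500 bp of any of the 5 miRNA genes. Pseudogenes of tRNA genes were not searched for. A match is a description of letters and not of a bound site.

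The strongest peak beside a miRNA gene was that of mir-51, of a family needed in the embryo. The gene lies on chromosome IV from 11026013 to 11026112 on the minus strand and is intergenic. Its peak, from 11026002 to 11026425, had a signal of 168 in the pooled list, 86.8 in replicate 1 and 89.1 in replicate 2. The ranks were 42, 79 and 27, so that mir-51 was near the top of every list. The summit lay 102 bp upstream of the annotated 5′ end. No other miRNA gene had a peak among the 566 strongest candidates of both replicates.

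mir-2214, the intronic member of the 5, lies in an intron of B0361.11 on its host's strand (chromosome III, 7278715 to 7278778). Its signal was 116 in the pooled list, 86.5 in replicate 1 and 27.5 in replicate 2. The ranks were 187, 85 and 3500, so that the peak was among the strongest of replicate 1 and well down the list of replicate 2. The summit was 13 bp upstream of the 5′ end.

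mir-80, a member of the bantam/mir-58 family, is intergenic on the minus strand of chromosome III (8865270 to 8865367). The signal was 101 in the pooled list, 69.9 in replicate 1 and 37.7 in replicate 2, at ranks 335, 186 and 956. The summit lay 191 bp upstream. mir-4936, intergenic on the plus strand of the same chromosome (3249151 to 3249260), had signals of 94.0, 67.5 and 27.1 in the same order of lists, at ranks 422, 217 and 3685. Its summit lay 87 bp inside the gene and also in the promoter window of nduf-9 (1000 bp before to 200 bp after a coding start site), a gene that encodes a subunit of respiratory complex I. Like mir-2214, mir-4936 was much lower in replicate 2 than in replicate 1.

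mir-45, of the mir-44 family, is intergenic on the minus strand of chromosome II (11880944 to 11881039). Its signal was 89.1 in the pooled list, 49.5 in replicate 1 and 37.3 in replicate 2, at ranks 511, 753 and 996. The summit lay 296 bp downstream of the 5′ end, beyond the hairpin. Of the 5 genes it was nearest to the lower bound of the optimal list, and it was outside the 566 strongest candidates of both replicates. The deposited -log10 q was at a maximum shared by 452 pooled candidates, 2.48, for the other 4 peaks and was 2.31 for mir-45, so it does not order them.

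The 5 genes are 1.92% of miRNA genes (95% exact interval 0.625 to 4.41). Intervals here and below are exact Clopper-Pearson intervals that cover counting error only, and genes that share a peak are not independent. Of genome positions, 0.602% had an optimal summit within the window of a miRNA gene of median length (95 bp). Of the 5′ ends of annotated genes other than miRNA and piRNA genes, 1.87% had one within 500 bp, against the same 5 genes (1.92%) for miRNA 5′ ends. The share for miRNA genes was thus near that of annotated genes in general, and its interval began just above that of genome positions. The share was 20.8% of 612 tRNA genes, 15.0% of 346 snoRNA genes, 12.4% of 129 snRNA genes and 1.06% of 19973 protein-coding genes. At the distance limit, mir-45 (201 bp from its summit) and mir-80 (191 bp) were the farthest genes inside it, and mir-2213 (1031 bp) and mir-2221 (1334 bp) were the nearest outside.

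**Figure D1:**
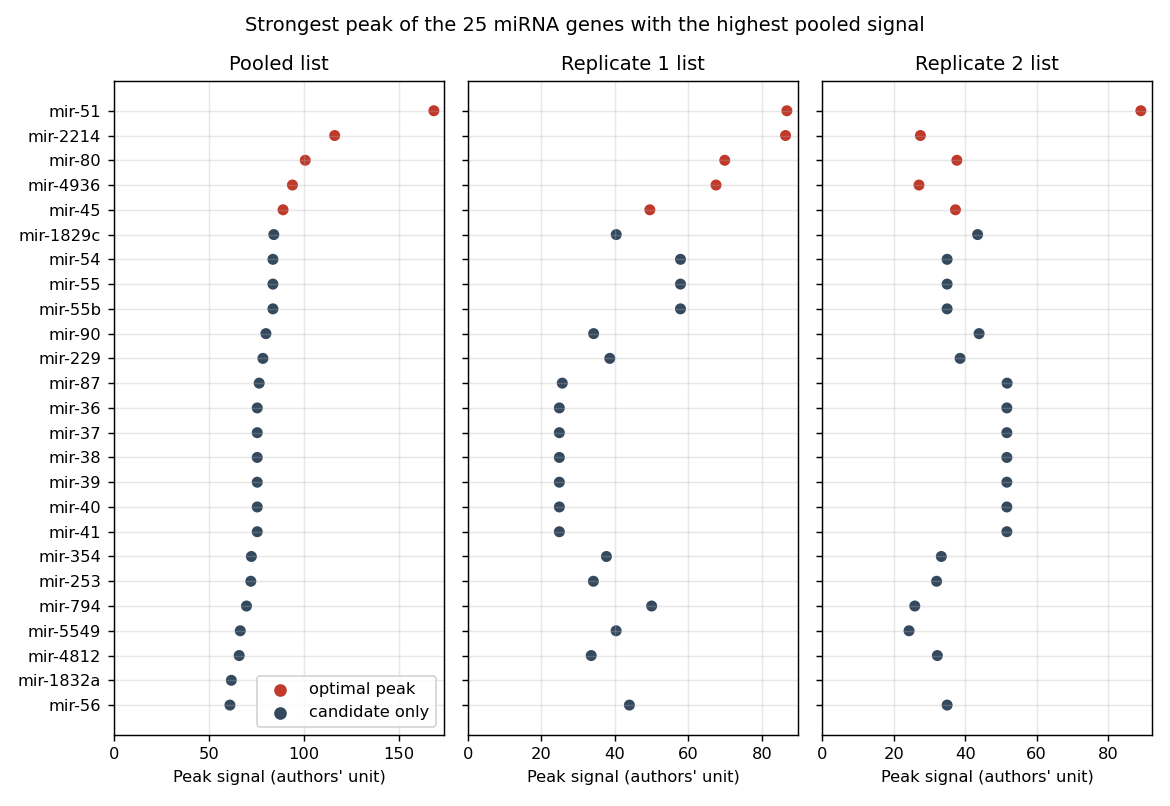
Peak signal (horizontal axis, in the authors' unit, 1 panel for each list) of the strongest peak within 500 bp of the 25 miRNA genes with the highest pooled signal (vertical axis). Red points are the 5 genes with an optimal peak, a missing point is a gene with no candidate in that list, and mir-51 is the only gene near 90 in replicate 2 (89.1).

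Below the optimal threshold, the next signals belonged to genes that lay mostly in introns and clusters. Among the 25 genes with the highest pooled signal, which include the 5, 18 were intronic, 6 intergenic and 1 exonic, and 16 were clustered. These 25 genes had 18 distinct peaks, since neighbouring genes share one. mir-1829c, in an intron of piki-1, which encodes a phosphoinositide kinase, followed with a pooled signal of 84.2, 40.4 in replicate 1 and 43.5 in replicate 2. A tRNA gene lay within 500 bp of it.

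A single peak in an intron of F09A5.3 on chromosome X gave mir-54, mir-55 and mir-55b, which is antisense to mir-55, a pooled signal of 83.8. The signal was 57.9 in replicate 1 at rank 403 and 34.9 in replicate 2 at rank 1288. mir-56, next in the same cluster, had a pooled signal of 61.1 from another peak. mir-90, in an intron of K01F9.2, had a signal of 80.1 in the pooled list, 34.2 in replicate 1 and 43.9 in replicate 2. mir-229, in an intron of gcn-1, had 78.5, 38.6 and 38.6, and mir-87, in an intron of kup-1, had 76.5, 25.7 and 51.7. The mir-87 peak ranked 8576 in replicate 1 and 268 in replicate 2, which is the opposite order from mir-2214.

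The mir-35 family, which is maternally and embryonically expressed and needed for embryonic development, had 1 peak with the same order of replicates as mir-87. mir-36 to mir-41 lie together in an intron of Y62F5A.9 on chromosome II (11537713 to 11538404 for these 6 genes) and share a peak with a pooled signal of 75.5 at rank 891. The strongest candidate near these 6 genes had 24.9 in replicate 1 at rank 9479 and 51.6 in replicate 2 at rank 270. Candidates were not matched between lists, and the summit of that in replicate 1 was not at the pooled summit. mir-35 has the same neighbours, but its nearest pooled summit lay 545 bp away, just outside the limit, and in replicate 1 it had the candidate of signal 24.9. mir-42, in a separate cluster with mir-43 and mir-44, had a pooled signal of 37.0, with 24.8 in replicate 1 at rank 9578 and 17.1 in replicate 2 at rank 16080, the other order. In all, 7 of the 8 family genes had a pooled candidate and these were 2 distinct peaks.

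The remaining genes of the highest 25 were weaker and had similar signals. mir-354 had 72.4 (exonic, overlapping rps-20), mir-253 had 72.1, mir-794 had 69.9, mir-5549 had 66.6, mir-4812 had 66.0 and mir-1832a had 61.9 in the pooled list. mir-1832a was the only one of the 25 with no candidate within 500 bp in either replicate. Of the other 24 genes, 10 ranked better in replicate 1 and 14 in replicate 2.

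**Figure D2:**
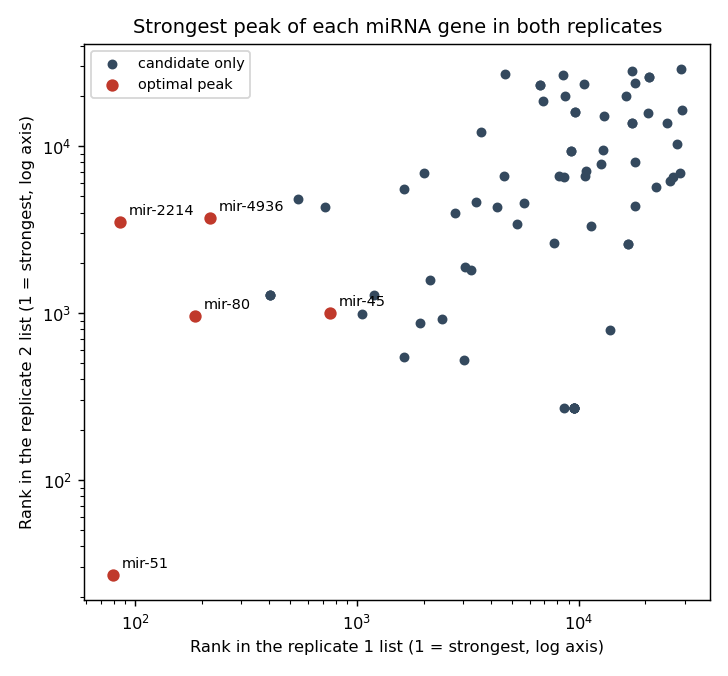
Rank of the strongest peak within 500 bp in the replicate 1 list (horizontal log axis) and in the replicate 2 list (vertical log axis) for the 76 miRNA genes with a candidate in both, where genes that share a peak overlie. Red points are the 5 genes with an optimal peak, of which only mir-51 is below rank 100 in both lists.

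Over all miRNA genes, a candidate lay within 500 bp in both replicates for 76 genes, in replicate 1 only for 37, in replicate 2 only for 32 and in neither for 116. For the 76 genes the Spearman correlation of the signals was 0.49, a description in which genes of a cluster share points. Of the 566 strongest candidates, replicate 1 placed a summit at 9 miRNA genes and replicate 2 at 10, with mir-51 common to both. The 8 of replicate 1 only were mir-2214, mir-80, mir-4936, mir-52, mir-5595, mir-54, mir-55 and mir-55b. The 9 of replicate 2 only were mir-1829c, mir-87, mir-90 and mir-36 to mir-41. mir-52 had a replicate 1 signal of 68.3 at rank 209, while the nearest summit in the pooled list was 17781 bp away and in replicate 2 it was 17751 bp away. mir-5595, in an intron of nurf-1 on the other strand, had 53.3 in replicate 1, 25.2 in replicate 2 and 46.4 in the pooled list.

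A pooled candidate of any strength lay within 500 bp of 119 of the 261 genes (45.6%, interval 39.4 to 51.8), at 101 distinct peaks. The counts were 113 genes (43.3%) in replicate 1 and 108 (41.4%) in replicate 2. The same window held a pooled summit at 27.5% of genome positions, a replicate 1 summit at 27.6% and a replicate 2 summit at 27.5%. Within 500 bp of the 5′ end alone, 114 miRNA genes (43.7%) had a pooled summit, against 32.6% of annotated genes other than miRNA and piRNA genes. The share was 29.9% for protein-coding genes, 24.2% for long intergenic noncoding RNA genes, 8.24% for piRNA genes, 62.7% for snoRNA genes and 86.1% for tRNA genes. It was 43.4% for snRNA genes, 38.2% for genes of the ncRNA class and 36.0% for antisense RNA genes. miRNA genes thus lay between protein-coding and snoRNA genes in this share, and were close to snRNA genes. The strongest peak within 500 bp of the 5′ end had a median pooled signal of 39.4 for miRNA genes and 36.2 for the other annotated genes. Only 9 of the 119 genes had a pooled candidate without one in either replicate, and 69 had one in both.

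Summits lay on both sides of the genes. For the 119 genes with a pooled candidate, which had 101 distinct strongest peaks, the summit was upstream along the gene's strand for 57, inside for 14 and downstream for 48. A peak shared by neighbouring genes was counted once for each gene. The median position was 55 bp downstream of the 5′ end, with quartiles of -194 bp and 293.5 bp. The search window reached 500 bp beyond both ends of a gene, so these values depend on it. What randomly placed summits would give was not computed, so no preference for a side can be read from them. For 31 of the 119 genes (26.1%) the summit also lay in the promoter window of a protein-coding gene. For 5 genes it lay near a tRNA, snoRNA or snRNA gene (within 500 bp). The share of all candidates or of genome positions in such places was not counted, so neither number can be called high or low. Which of the neighbouring genes a peak belongs to cannot be told apart from position alone.

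**Figure D3:**
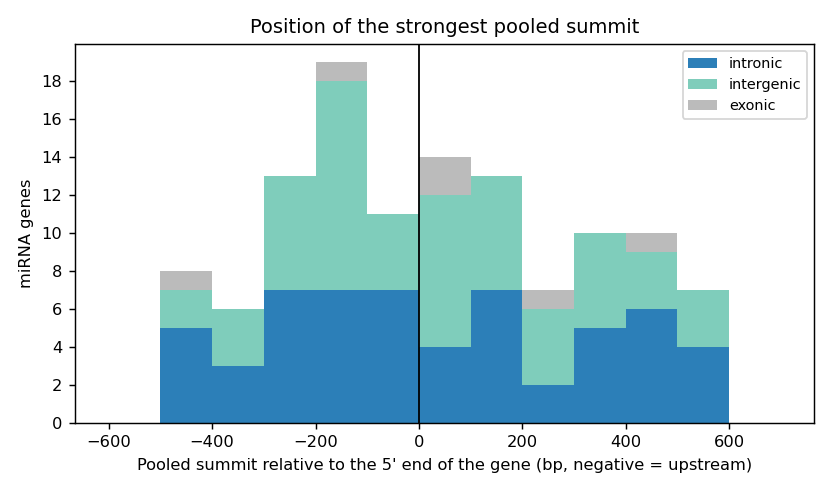
Number of miRNA genes (vertical axis) by the position of the strongest pooled summit relative to the annotated 5′ end (horizontal axis, bp along the gene's strand, negative is upstream), stacked by position in gene models. let-7, whose annotated gene is 1732 bp long, is left out of the plot, and the bars extend on both sides of 0, with the summit upstream for 57 of the 119 genes.

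Intronic miRNA genes had a pooled candidate more often than intergenic ones. The counts were 57 of 97 intronic genes (58.8%, interval 48.3 to 68.7) and 55 of 152 intergenic genes (36.2%, interval 28.6 to 44.4), a difference of 22.6 percentage points. It was 21.8 points in replicate 1 (55 and 53 genes) and 17.99 points in replicate 2 (50 and 51 genes), the same direction in both. The background was 26.5% of intronic and 21.5% of intergenic genome positions, so both classes were above their background and the gap between the classes was wider than in the genome. The median signal of the strongest peak was 40.6 for intronic and 37.0 for intergenic genes. The 152 intergenic genes include the 11 of a cluster from mir-4807 to mir-4921, with 0 candidates. Only protein-coding genes were counted as hosts, so whether these 11 lie in introns of other transcripts was not examined. Classed as intronic, they would make the difference between the classes smaller. The 12 exonic genes, among which is let-7, had a candidate in 7 cases.

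The strand of the intronic gene made little difference in this share. A pooled candidate lay at 39 of 67 genes on the strand of the host (58.2%) and at 18 of 30 on the opposite strand (60.0%, interval 40.6 to 77.3). Of these 18 genes, 6 are mir-36 to mir-41 with a shared peak, and mir-357 and mir-358 share another. The comparison thus rests on fewer peaks than genes. In 8 genes the annotated hairpin fills an intron of a protein-coding gene to within 5 bp at each end, and 5 of these had a candidate. Hairpins of mirtrons fill their intron in this way and are released by splicing. Introns of other transcripts were not searched.

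In the optimal list the order of the classes was the other way, with 1 of 97 intronic genes and 4 of 152 intergenic genes, a difference of -1.60 points on 5 genes. The background was 0.363% of intronic and 0.592% of intergenic genome positions. This direction was not kept by the replicates alone. Among the 566 strongest candidates, replicate 1 had summits at 5 intronic and 4 intergenic genes (2.52 points), and replicate 2 at 9 intronic and 1 intergenic gene (8.62 points). Of the 9 intronic genes of replicate 2, 6 are mir-36 to mir-41 with their shared peak.

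**Figure D4:**
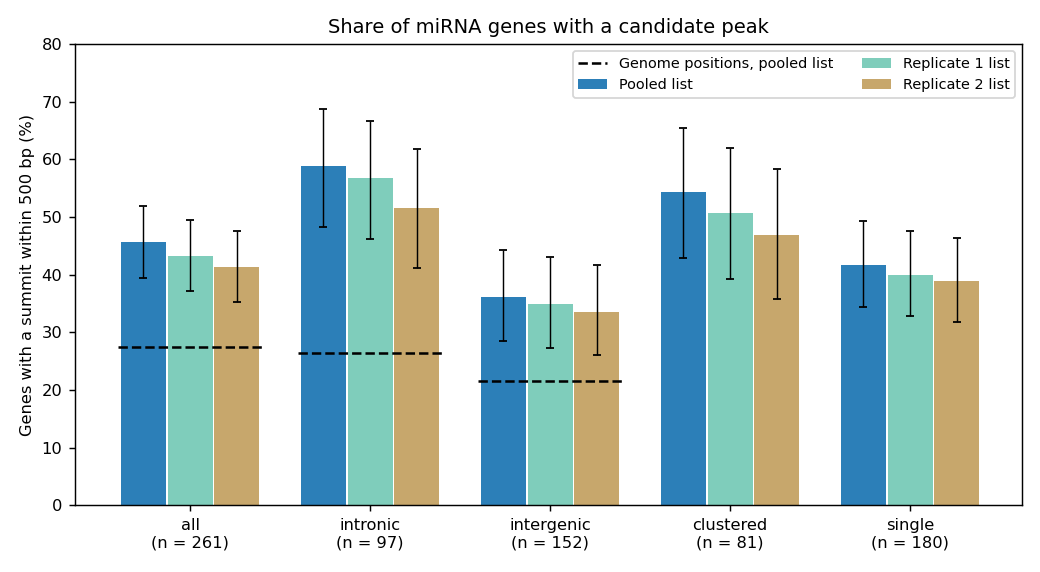
Share of miRNA genes with a candidate summit within 500 bp (vertical axis, %) for all genes and for the classes compared, in the pooled list and in each replicate list. Error bars are exact 95% intervals of counting, dashed lines are the share of genome positions of that class in the pooled list, and the intronic bars lie above the intergenic bars in every list.

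Over all miRNA genes, clustered ones had a pooled candidate somewhat more often than single ones, but not in every subset: the direction turned among genes of low GC content and among genes with higher-numbered names, as given with those groups. Both groups hold all 11 genes of the largest cluster, mir-4807 to mir-4921 on chromosome X, which had 0 candidates. By the counts given with those groups, the pooled direction without this cluster stays turned at low GC content. Among higher-numbered names it does not, and the clustered share passes narrowly above the single one. The counts were 44 of 81 clustered genes (54.3%, interval 42.9 to 65.4) and 75 of 180 single genes (41.7%, interval 34.4 to 49.2), whose intervals overlap. The difference was 12.7 percentage points in the pooled list, 10.6 in replicate 1 and 8.03 in replicate 2. Genes of a cluster share peaks, and counting each cluster once by its most 5′ gene gave 10.1 points. The optimal list had 2 clustered genes of 81, mir-51 and mir-80, and 3 single genes of 180. That difference of 0.802 points changed sign when each cluster was counted once (-1.67 points).

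Genes that were both intronic and clustered had the highest share of the 4 combinations. A pooled candidate lay at 21 of 24 intronic clustered genes (87.5%, interval 67.6 to 97.3), 36 of 73 intronic single genes (49.3%), 22 of 56 intergenic clustered genes (39.3%) and 33 of 96 intergenic single genes (34.4%). The replicate counts for intronic clustered genes were 21 and 19. The interaction was not tested, and 7 of these 24 genes are mir-35 to mir-41. Of the 29 clusters, 18 had at least 1 candidate. The largest, 11 genes on chromosome X from mir-4807 to mir-4921 (1872466 to 1880038), had 0. All 11 were classed as intergenic, since only protein-coding genes were counted as hosts. The mir-229, mir-64, mir-65 and mir-66 cluster had candidates at 4 of 4 genes from 3 peaks, and the mir-80, mir-238 and mir-90 cluster at 3 of 3 from 3 peaks.

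Base composition differed between the classes in the same way as the peaks. The GC content of the gene with 500 bp on each side had a median of 40.5% for intronic, 35.8% for intergenic, 38.7% for clustered and 36.5% for single genes. It was 39.3% for genes with a pooled candidate and 35.3% for genes without. Among genome positions, 42.4% of those with a window GC content over the miRNA median (36.7%) had a pooled summit, against 19.3% of those up to it. miRNA genes had a candidate at 83 of 130 genes (63.8%) over that value and at 36 of 131 (27.5%) up to it.

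Within these GC groups, chosen after the data were seen, the intronic share in the pooled list was above the intergenic one, narrowly in the low group. Over the median GC content, 47 of 68 intronic and 30 of 55 intergenic genes had a candidate (14.6 points). Up to it, 10 of 29 intronic and 25 of 97 intergenic genes did (8.71 points), with intervals of 17.9 to 54.3% and 17.4 to 35.7% that overlap. In replicate 2, 8 of 29 (27.6%) and 25 of 97 (25.8%) of these genes had a candidate, so without replicate 1 little of the difference was left up to the median. Replicate 1 gave 10 and 24 genes. The 97 intergenic genes up to the median include the 11 of the cluster from mir-4807 to mir-4921. Classed as intronic, these would turn the narrow pooled difference. Both pooled differences were smaller than that over all genes, and the part of GC content in the result was not tested further. For clusters the direction changed, with 38 of 47 clustered and 45 of 83 single genes over the median (26.6 points) and 6 of 34 clustered and 30 of 97 single genes up to it (-13.3 points). Those 34 clustered genes include the 11 of the cluster from mir-4807 to mir-4921, with 0 candidates. Genes for tRNA, snoRNA or snRNA lay within 500 bp of 10 miRNA genes, 8 of them with a pooled candidate and 0 with an optimal peak.

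**Figure D5:**
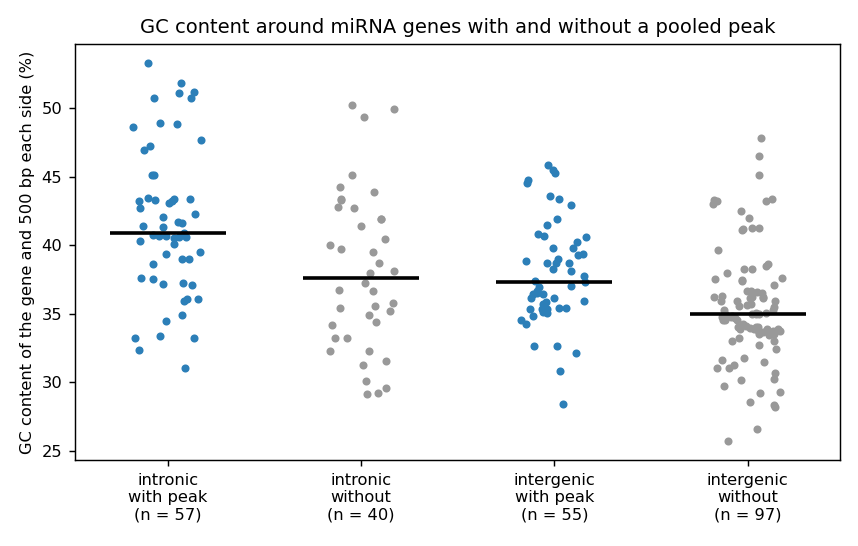
GC content of the miRNA gene with 500 bp on each side (vertical axis, %) for intronic and intergenic genes with and without a pooled candidate, each point a gene and each bar the median. In both classes the median is higher for genes with a candidate, and genes with and without one overlap over most of their range.

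Genes with low-numbered names, which were mostly described earlier, also had candidates more often. Genes with a name numbered under 400, together with let-7, lin-4 and lsy-6, had a pooled candidate in 66 of 119 cases (55.5%), against 53 of 142 (37.3%) for all other names. Within the first set, 34 of 42 intronic and 29 of 72 intergenic genes had one, and among the other names 23 of 55 and 26 of 80 did. Those 80 intergenic genes include the 11 from mir-4807 to mir-4921, which would turn this last difference if classed as intronic. For clusters the direction differed between these sets. Under 400, 33 of 44 clustered genes (interval 59.7 to 86.8%) and 33 of 75 single genes (44.0%, interval 32.5 to 55.9) had a pooled candidate. Among the other names, 11 of 37 clustered genes (29.7%, interval 15.9 to 47.0) and 42 of 105 single genes (40.0%, interval 30.6 to 50.02) had one, and clustered genes were also lower in replicate 1 (10 and 37 genes) and replicate 2 (8 and 33 genes). Those 37 clustered genes include the 11 of the cluster from mir-4807 to mir-4921, with 0 candidates. Without these 11, the clustered share is narrowly above the single one in the pooled list and in replicate 1. In replicate 2 it stays narrowly below. By chromosome the share ran from 28 of 74 genes on X (37.8%, interval 26.8 to 49.9) to 17 of 27 on III (63.0%, interval 42.4 to 80.6). Chromosome III also held 3 of the 5 genes with an optimal peak (3 of 27, interval 2.35 to 29.2%), and X held 0 of 74 genes. The X interval, 0 to 4.86%, includes the share of all miRNA genes (1.92%). No background was counted by chromosome, so on 5 genes a difference between chromosomes was not tested.

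Families with a role in developmental timing had candidates at some of their genes, as did 45.6% of all miRNA genes. They had no optimal peak, but 1.92% of all miRNA genes had one, so on so few genes this does not set them apart. In the let-7 family, which promotes the passage from larval to adult fates, 4 of 7 genes had a pooled candidate, with a median of 49.9 against 39.9 over all miRNA genes with one, and 0 had an optimal peak. mir-794 had 69.9 in the pooled list, 50.01 in replicate 1 and 25.9 in replicate 2. mir-84 had 57.9, 38.3 and 22.7, mir-48 had 41.9, 32.7 and 19.0, and let-7 itself had 37.5, 24.1 and 14.5. The pooled let-7 summit lay inside its annotated gene, 715 bp from the 5′ end, and in the promoter window of C05G5.7. The let-7 gene overlaps C05G5.7 on the same strand. At 1732 bp it was searched over a wider window than a gene of median length (95 bp). mir-793 and mir-795 had no candidate in these 3 lists, and mir-241 had one only in replicate 2 (20.5). The founding miRNA lin-4, which controls early larval divisions, had 45.4, 23.9 and 23.1, from a summit 449 bp upstream in an intron of F59G1.4. Its relative mir-237 had a candidate only in replicate 2 (14.2).

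The family of mir-51 had the highest median of the families listed here, with a pooled candidate at 6 of 7 genes from 4 distinct peaks and a median of 83.8. The count includes mir-55b, which is antisense to mir-55 and has another seed, and over the 6 genes that share the seed of mir-51 it was 5. mir-53, which is clustered with mir-51 on chromosome IV, had 48.2 in the pooled list, 23.9 in replicate 1 and 22.6 in replicate 2. The exception was mir-52 with its replicate 1 candidate. In the bantam/mir-58 list, 5 of 7 matched genes had a candidate, but after mir-80 the values were low. That list follows gene names and leaves out mir-58b and mir-58c, and over the 6 genes with the seed of mir-80, which include both (28.4 from a shared peak), the count was also 5, with a median of 32.2. mir-58a had 37.0 in the pooled list and mir-82 had 32.2, both with no candidate in replicate 2, and mir-81 had none in these 3 lists. In the mir-44 family 2 of 4 genes had one, mir-45 and mir-44 with 27.6, so the identical mature products of mir-45 and mir-44 came from genes with unlike peaks.

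Among smaller lists, all 4 genes of the mir-72 list (3 distinct peaks), all 3 of the mir-238 family and both of the mir-87 list had pooled candidates. The count was 4 of 5 for the mir-64 family, 2 of 4 for the mir-2 family, and 1 of 2 for each of the mir-75, mir-232 and mir-251 families. The lists of mir-72 and mir-87 do not follow the seed. The seed GGCAAGA of mir-72 is shared by 6 genes, which do not include mir-71. Of these, mir-266, mir-8187 and mir-8188 had no pooled candidate. The seed UGAGCAA of mir-87 is shared by 3 genes, of which mir-356a had no pooled candidate. mir-239b had 53.1, mir-239a 51.5 and mir-238 41.6, and mir-71, which extends lifespan when active in neurons, had 53.2. mir-233 had 23.9, close to the weakest candidate of the pooled list (23.2). The tissue-restricted genes were unlike one another. mir-1, the muscle miRNA, and lsy-6, which sets the left and right identity of a pair of taste neurons, had no candidate in any list. mir-124, a miRNA of sensory neurons, had 39.8 in the pooled list, 22.4 in replicate 1 and 20.7 in replicate 2. In all, 3 of 7 genes of the neuron list and 7 of 19 of the list for hypodermis, glia, pharynx or intestine had a pooled candidate, beside 45.6% of all miRNA genes, and on so few genes neither list is set apart. Expression was not measured here.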

How the data were processed

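Peaks of 2 biological replicates of ChIP-seq were read as deposited in the ce11 assembly, whose coordinates are those of WBcel235. Per the notes deposited with the files, the lists were derived from the alignment of each replicate, or of both pooled, and 1 control alignment. An aligner and a peak caller were not given in the sources used here. Signals, as deposited by the authors, were used within a list and ranks between lists. The strongest candidate was taken from each list separately, and candidates were not matched between lists. The deposited -log10 q has a shared maximum and was only described. Read depth is unknown from the lists, and intervals cover the counting of genes only. The ce10 lists were not used here.

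The members and lists were chosen with earlier results of these data known, and those results come from the same files. Genes came from Ensembl release 115, and sequence and mature products from RefSeq (WBcel235). In 7 cases a gene whose Ensembl name was not a gene name or was repeated took its RefSeq name. Coordinates are 1-based. Background shares were counted over all genome positions, with 547 bp on each side, and over the 5′ ends of other genes. No p-value was computed, because the data have 1 group and neighbouring genes share peaks. The 2 replicates are labelled as biological, and the pooled and optimal lists are not independent of them.

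Genes named are those with an optimal peak, the 20 others with the highest pooled signal, the let-7, lin-4 and mir-35 families, lsy-6, mir-1 and mir-124, up to 4 of other lists, the 2 genes nearest the limit on each side, and those among the strongest 566 candidates of 1 replicate only. Members of the families of mir-51, mir-80, mir-45, mir-72 and mir-87 that are named beside these, and genes named by their cluster, were chosen after their values were seen, as was the word GTTCGA. Alternatives covered other distances, the 5′ end, any overlap of the peak, short RNA genes left out, each replicate alone (its 566 strongest for the optimal list), the part of each list above its median signal, host strand, clusters counted once and other cluster distances. Groups by GC content and by name number were added after seeing the data. The assignment of peaks, classes and clusters was tested on simulated data. Software was Python 3.11.15, with matplotlib 3.10.9, scipy 1.17.1, pandas 2.3.3 and numpy 2.4.6.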

Additional observations from a re-analysis of the deposited data

How the results depend on the processing

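Of 66 recomputed values, 35 stayed within 1.5 times the count or 1 SD of the replicates, 24 moved further without a change of sign and 7 changed sign. The 119 genes with a pooled summit became 78 above the median signal of the list, a set that holds fewer peaks by construction. The 5 genes with an optimal summit became 2 above the median signal and 9 to 10 with 1 replicate left out. The difference of intronic and intergenic shares in the pooled list (22.6 percentage points) was 17.3 at 250 bp, 27.5 at 1000 bp, 17.2 above the median signal, 17.5 with each cluster once and 17.99 to 21.8 with 1 replicate left out. It was 14.6 and 8.71 over and up to the median GC content, 40.7 for names numbered under 400 and 9.32 for other names. The intergenic class includes the 11 genes of the cluster from mir-4807 to mir-4921, and no difference was recomputed with them classed otherwise. The difference of clustered and single shares (12.7 points) was 9.51 at 250 bp, 8.58 for any overlap, 10.2 without genes near short RNA genes, 15.7 above the median signal, 10.1 with each cluster once, 19.9 for clusters within 1000 bp and 8.03 to 10.6 with 1 replicate left out. It was 26.6 over and -13.3 up to the median GC content, 31.0 for names numbered under 400 and -10.3 for other names. Both negative values include the 11 genes of the cluster from mir-4807 to mir-4921, which had 0 candidates. By the counts given above, leaving it out keeps the value for low GC content negative and makes that for other names narrowly positive. In the optimal list, the intronic difference of -1.60 points became 0.373 above the median signal and 2.52 to 8.62 with 1 replicate left out. The clustered difference of 0.802 points became -1.67 with each cluster once, -2.39 for clusters within 1000 bp and 2.16 to 10.6 with 1 replicate left out. Apart from smaller lists, the cause of these changes was not tested. No paired analysis was possible because the samples form 1 group. Without read counts, an absent candidate means only that the authors' list holds none there, and 5 genes are too few to order the classes in the optimal list.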
